A study of Mus musculus with 4 samples.

Results

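The genes described here encode the ligands and receptors of the 4 classical families of guidance cues: the semaphorins with their plexin and neuropilin receptors, the ephrins with the Eph receptors, the netrins with their receptors, and the Slits with the Robo receptors. The rule picks them by gene symbol alone, from the probe sets annotated with a single gene, and uses no signal. The rule found 58 genes, on 97 probe sets, of 12393 genes on the arrays. RefSeq lists 70 genes of these names, and the other 12 (Epha10, Ephb1, Ephb2, Ntn5, Plxna4, Plxnb1, Robo2, Sema3d, Sema3g, Sema4c, Unc5a and Unc5d) are not analysed here.

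The genes were measured in primary astrocyte cultures of CD-1 mice, an outbred stock, at postnatal day 3. Cultures came from the subventricular zone, which is the germinal layer beside the lateral ventricle, from the ventral mesencephalon, from the olfactory bulb and from the hippocampus, and each was hybridised to 1 Affymetrix array. They are also called the subventricular, mesencephalic, olfactory and hippocampal culture. The labels name no treatment or genetic change in any group, and all cultures were kept in medium with 10% serum. The series' text names littermate pups whose tissue was pooled, once as 4 and once as 3 animals. With 1 array per region there is no replicate, so no difference below has a test or an error from replicates, and what separates 2 regions cannot be told apart from what separates 2 culture dishes or 2 pools.

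Guidance cues steer migrating cells and growing axons by attraction or repulsion. Class 3 semaphorins are secreted and bind a neuropilin, which passes the signal on through a plexin, whereas the other semaphorins are mostly bound to the membrane and bind plexins directly. Ephrins are membrane-bound too, the A type by a lipid anchor and the B type by a transmembrane segment, so that Eph signalling needs contact between cells and can run in both directions. Netrins attract through Dcc and Neo1 and repel through the Unc5 receptors, and Slits repel through Robo receptors. Slits are known for the chemorepulsion of neuroblasts that migrate from the subventricular zone to the olfactory bulb.

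The arrays were on 1 signal scale, with 2% trimmed means of 400.1 to 400.2. A signal of 122.1, the median over all probe sets and arrays, served as a floor: lower signals were raised to it before any fold was taken, and a fold against a signal at the floor is written as "at least". Astrocyte markers were measured in each culture. Of 16 astrocyte markers 14 were above the floor on at least 1 array, and 11 to 14 on each, with Gfap at 1007 to 10027 and Slc1a2 below the floor on all 4. They too differed between cultures, with sums of 40026 (subventricular), 19665 (mesencephalic), 27114 (olfactory) and 43627 (hippocampal). For 8 of the 14, at least 1 culture lay 2-fold or more above or below every other one. The cultures also differed in markers of other cells. Of 20 microglia and macrophage markers on the arrays, 3 were above the floor in the subventricular, 2 in the mesencephalic, 18 in the olfactory and 19 in the hippocampal culture, with summed signals of 909.9, 1156, 42874 and 48583. The 21 fibroblast and meningeal markers summed to 15466, 62792, 85308 and 35110 in the same order, with 12, 19, 21 and 19 above the floor. Of 12 endothelial markers 4 passed the floor anywhere, and Pecam1 lay between 1.0 and 6.4. Of 16 neuronal markers 6 passed it, with sums of 10914, 2562, 2976 and 5246. Of the other lists, 9 of 10 olfactory ensheathing and Schwann cell markers passed the floor (sums 15747, 6032, 5171 and 10222, with 2, 4, 7 and 5 above it). So did 6 of 11 pericyte and smooth muscle markers (sums of 18800 to 20533) and 7 of 10 oligodendrocyte markers (sums 6046, 2268, 2431 and 6960). Of 12 progenitor markers 10 passed it, with sums of 22144, 14846, 3863 and 15306.5, lowest in the olfactory culture.

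Of the 58 guidance genes 36 were above the floor on at least 1 array: 18 in the subventricular, 25 in the mesencephalic, 28 in the olfactory and 17 in the hippocampal culture. Of all 12393 genes 7987 were above it on at least 1 array, a share near that of the guidance genes. Per culture, 11184, 11207, 11144 and 11835 of all 22690 probe sets were above it, in the same order. The olfactory bulb gave the highest signal of 15 of the 36, the ventral mesencephalon of 9, the subventricular zone of 7 and the hippocampus of 5; over all 7987 genes above the floor these regions were highest for 28.7%, 19.96%, 23.3% and 28.0%. A gene that passed the floor in 1 culture alone had to differ between cultures, and the shares over all genes hold such genes too. In 22 the highest region was at least 2-fold above the lowest (31.0% of all genes above the floor), in 7 at least 4-fold (9.03% of all), and the median range was 2.53-fold against 1.61-fold over all genes. Over the 36 genes, the median of the log2 signal minus the mean of the remaining cultures was 0.22 for the olfactory, -0.05 for the mesencephalic, -0.17 for the subventricular and -0.36 for the hippocampal culture, while over all genes it lay between -0.06 and 0.01. Without the olfactory bulb array the value of the ventral mesencephalon was 0.37.

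**Figure D1:**
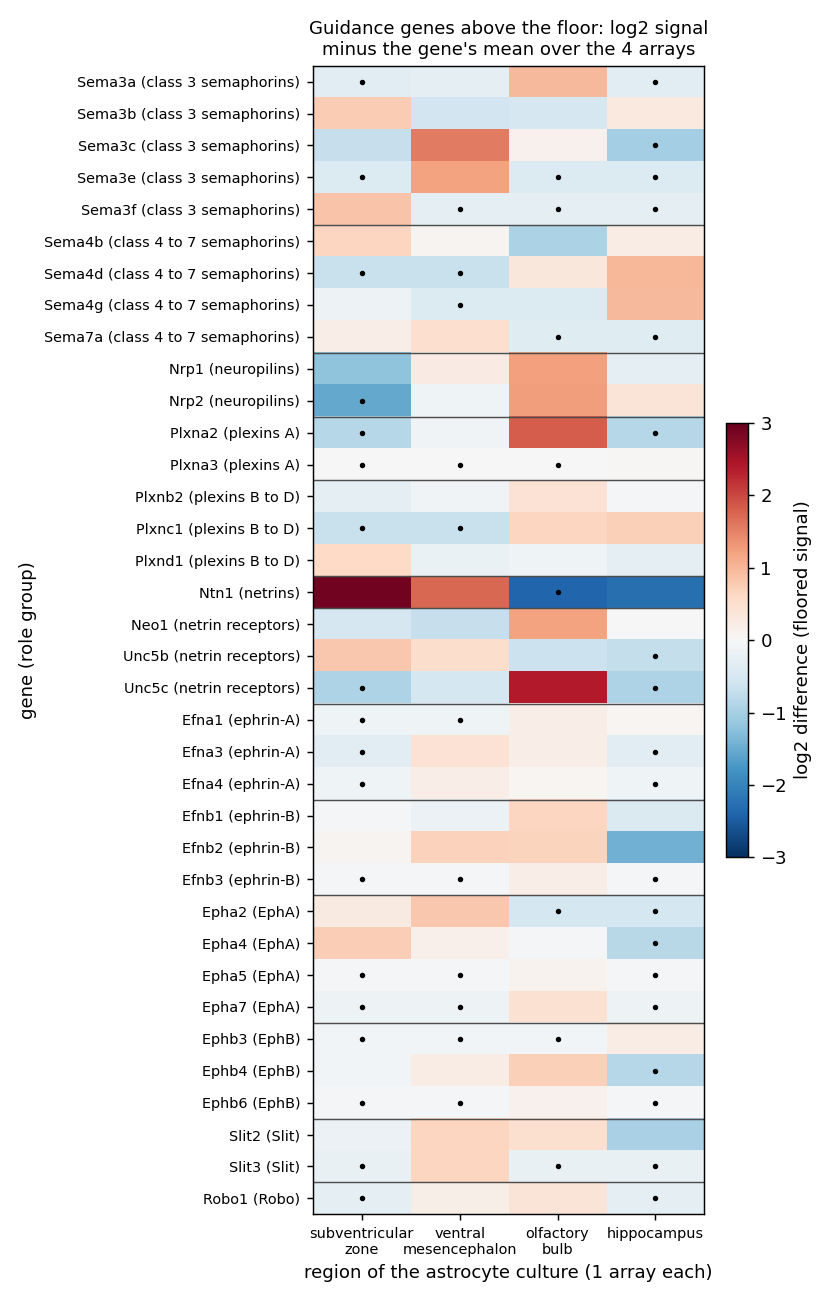
Log2 signal of each of the 36 guidance genes above the floor (rows, grouped by role) in the 4 cultures (columns, 1 array each), minus the gene's mean over the 4 arrays; red is above and blue below that mean, and a dot marks a signal at or below the floor of 122.1. Ntn1 has the widest span, from the subventricular zone and ventral mesencephalon on the high side to the olfactory bulb and hippocampus on the low side, and the olfactory bulb column holds the highest value of 15 rows.

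For a call of higher in 1 region, a signal had to exceed each of the other 3 at least 2-fold, and for a call of lower it had to be at least 2-fold below each. By this rule 12 genes were called in a region, of the 58 on the arrays and the 36 above the floor, where 10.1% of all genes above the floor were. In the subventricular zone 2 were higher, Ntn1 and Sema3f (1.28% of all genes), and 1 was lower, Nrp2 (1.01%). In the ventral mesencephalon 2 were higher, Sema3c and Sema3e (1.57%), and none was lower (0.563%). In the olfactory bulb 4 were higher, Neo1, Plxna2, Sema3a and Unc5c (1.87%), and 1 was lower, Sema4b (1.55%). In the hippocampus 1 was higher, Sema4g (2.49%), and 1 was lower, Efnb2 (0.488%), so the hippocampal share of higher genes lay near that of all genes. Several calls rest on signals close to the floor or on 1 probe set. With the floor at the 70th percentile of all signals, Nrp2, Sema3a, Sema3e, Sema3f, Sema4b and Sema4g were no longer called, and where all probe sets of a gene were averaged Efnb2, Ntn1, Sema3a, Sema3e, Sema3f and Sema4b were not. Efnb2, Neo1, Ntn1, Plxna2, Sema3c and Unc5c kept their call at the higher floor. Of the called members with several probe sets, only Unc5c kept its call with the average, which cannot change Neo1, Nrp2, Plxna2, Sema3c or Sema4g, each with 1 probe set. Signals were averaged after the floor was applied, so a probe set below the floor throughout shrinks a gap by construction. All further probe sets of Ntn1, Sema3a, Sema3f and Sema4b were of that kind, so the loss of these calls is no check on them.

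**Figure D2:**
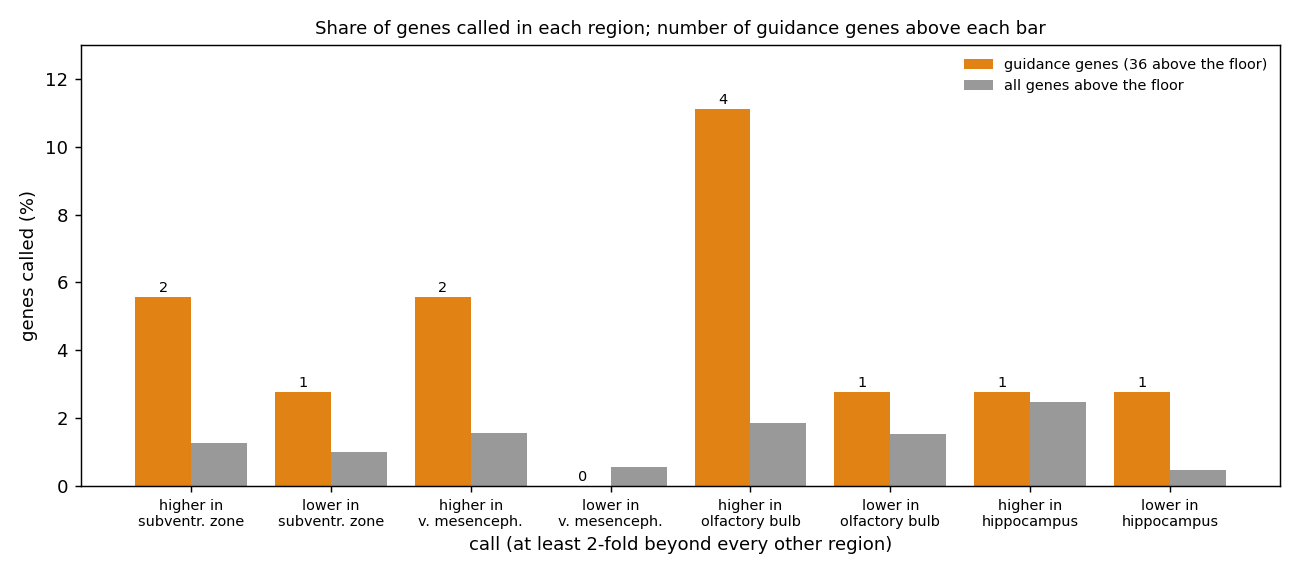
Percent of genes called higher or lower in each region (bars from 0; orange, the 36 guidance genes above the floor; grey, all 7987 genes above the floor), with the number of guidance genes above each orange bar. The highest orange bar is the olfactory bulb, 4 genes or 11.1% against 1.87% of all genes; no member was lower in the ventral mesencephalon.

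Netrin-1 had the widest range of all 36 genes. Ntn1, the secreted cue that floor plate cells and many other tissues release, had a signal of 4729.6 in the subventricular, 2085 in the mesencephalic, 69.6 in the olfactory and 132 in the hippocampal culture. It was thus high in 2 cultures and at or near the floor in the other 2, at least 38.7-fold higher in the subventricular zone than in the olfactory bulb, 35.7-fold higher than in the hippocampus, and 2.27-fold higher than in the ventral mesencephalon. The ventral mesencephalon was itself 15.8-fold above the hippocampus, and without its array the log2 gap of the subventricular zone to the nearest region went from 1.18 to 5.16. All this rests on 1 probe set: the other one for Ntn1 read 70.3, 39.5, 1.7 and 17.7, below the floor throughout, and with the mean of both the log2 gap was 0.59. In bulk RNA of a culture, fewer cells that express a gene and less RNA per cell cannot be told apart. The 2 cultures with high Ntn1 were those with 2 or 3 microglial markers above the floor, and the part of cell composition in this was not tested. Ntn3 and Ntn4, the other netrins on the arrays, were below the floor in every culture.

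The netrin receptors differed in another way. Unc5c, a repulsive receptor, read 112 in the subventricular, 162 in the mesencephalic, 1199 in the olfactory and 103 in the hippocampal culture. It was 7.40-fold higher in the olfactory bulb than in the next culture and at least 9.82-fold higher than in the subventricular zone and hippocampus. Its other probe set read 42.3, 105, 636.5 and 50.4, so that only the olfactory bulb was above the floor. Neo1, the broadly made relative of Dcc, read 316, 279, 1026 and 445 in the same order of regions and was 2.31-fold higher in the olfactory bulb than in the hippocampus. Unc5b, a repulsive receptor also known from vessels, read 351, 287, 128 and 91.6, the 2 cultures with high Ntn1 being the higher ones, at least 2.87-fold from highest to lowest. Dcc itself was below the floor everywhere, at no more than 21.4. The olfactory bulb culture therefore had the highest signal of Unc5c and Neo1 and a Ntn1 signal below the floor. It also had the highest summed signal of fibroblast and meningeal markers. Ngfr and Sox10, of the olfactory ensheathing and Schwann cell list, and Rgs5, of the pericyte list, were called higher there (Ngfr 662 against 13.5, 158 and 9.8). The same 2 lists also held genes called lower there, Fabp7 (1249.7) and Cnn1 (132.3). The ensheathing and Schwann cell list had its lowest sum in that culture (5171), but also its most markers above the floor. It had 7 there against 2 in the subventricular, 4 in the mesencephalic and 5 in the hippocampal culture. Fabp7, also on the astrocyte list, made up most of the sum in those other cultures, at 14077, 4522 and 6218. Of the progenitor list, 5 markers were called lower in the olfactory bulb and 1 higher. The part of the cells of these lists in the signals of Unc5c, Neo1, Plxna2 and Sema3a was not tested.

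Unc5c, Neo1, Plxna2 and Sema3a were the 4 members called higher in the olfactory bulb, and the 250 bases before their annotated starts are shown because these members had their top signal in the same culture. They come from RefSeq, build GRCm38.p6, at chr3:141465314-141465563 (plus strand) for Unc5c, chr9:59036442-59036691 (minus) for Neo1, chr1:194619579-194619828 (plus) for Plxna2 and chr5:13396534-13396783 (plus) for Sema3a. Capitals mark matches on either strand to GGGCGG for the GC box, TATAAA for the TATA box, CCAAT for the CCAAT box or TAATTA for the homeodomain core.
Unc5c: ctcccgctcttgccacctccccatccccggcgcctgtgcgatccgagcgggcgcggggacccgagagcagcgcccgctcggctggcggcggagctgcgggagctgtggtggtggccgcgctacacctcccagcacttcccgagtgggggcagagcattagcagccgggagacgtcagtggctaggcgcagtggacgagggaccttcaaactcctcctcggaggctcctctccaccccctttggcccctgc
Neo1: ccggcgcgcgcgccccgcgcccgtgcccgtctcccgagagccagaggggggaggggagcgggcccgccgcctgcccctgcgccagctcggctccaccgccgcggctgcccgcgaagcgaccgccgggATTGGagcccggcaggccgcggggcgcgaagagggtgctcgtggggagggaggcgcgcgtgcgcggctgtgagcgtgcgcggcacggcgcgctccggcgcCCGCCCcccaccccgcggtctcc
Plxna2: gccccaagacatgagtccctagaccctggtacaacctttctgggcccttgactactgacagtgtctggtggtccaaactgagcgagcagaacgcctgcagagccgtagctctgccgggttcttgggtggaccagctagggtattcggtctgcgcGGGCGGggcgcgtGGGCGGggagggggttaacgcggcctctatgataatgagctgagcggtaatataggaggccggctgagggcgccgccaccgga
Sema3a: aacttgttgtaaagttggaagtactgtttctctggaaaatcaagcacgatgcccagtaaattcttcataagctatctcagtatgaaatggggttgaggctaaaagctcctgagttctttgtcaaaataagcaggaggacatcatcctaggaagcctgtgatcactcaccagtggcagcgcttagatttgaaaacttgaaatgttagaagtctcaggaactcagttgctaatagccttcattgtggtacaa

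The matches differed between the 4 stretches. Of 32851 such stretches in the table, 32.7% held the GC box, 12.4% the TATA box, 33.8% the CCAAT box and 4.8% the homeodomain core. Plxna2 held 2 GC boxes, Neo1 held 1 GC box and 1 CCAAT box, no matches overlapped, and Unc5c and Sema3a held none of the 4 motifs in this window. CpG dinucleotides numbered 45 in Neo1, 23 in Unc5c, 18 in Plxna2 and 2 in Sema3a, where the median of all stretches was 6. Entries were matched for 10 of the 12 called members.

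All 5 class 3 semaphorins on the arrays had a range of at least 2-fold, and 4 were called, in 3 different regions, where 31.0% of all genes had such a range and 10.1% were called. Sema3c, a cue that can attract as well as repel, read 152 in the subventricular, 728 in the mesencephalic, 270.0 in the olfactory and 114 in the hippocampal culture, and was 2.69-fold higher in the ventral mesencephalon than in the next culture. Sema3e, which signals through Plxnd1 without needing a neuropilin, read 43.3, 375, 96.7 and 57.6, and was at least 3.07-fold higher in the ventral mesencephalon. Both were thus highest in the same culture. The second probe set of Sema3e, at 133 in the ventral mesencephalon and below the floor elsewhere, had the same culture on top. Sema3a, the archetypal repellent of the class, read 26.0, 128, 304 and 78.8, 2.39-fold higher in the olfactory bulb than in the ventral mesencephalon, with its other 2 probe sets below the floor. Sema3f, the ligand of Nrp2, read 269, 101, 75.4 and 98.2, and was at least 2.21-fold higher in the subventricular zone than in any other culture. Sema3b read 449.6, 177, 187 and 325, 1.38-fold higher in the subventricular zone than in the hippocampus and 2.54-fold higher than in the ventral mesencephalon. A further probe set of Sema3b passed the floor in the hippocampus alone, at 124.5 against 116 in the subventricular zone, and the last one nowhere. By the probe sets used, no class 3 semaphorin had its top signal in the hippocampus.

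Both neuropilins were lowest in the subventricular zone and highest in the olfactory bulb. Nrp1, the receptor of Sema3a and a coreceptor of Vegfa, read 647 in the subventricular, 1756 in the mesencephalic, 3483 in the olfactory and 1219.7 in the hippocampal culture. Its 2 gaps, 1.98-fold above the next culture in the olfactory bulb and 1.89-fold below the next in the subventricular zone, stayed just short of 2-fold, and its highest-over-lowest range was 5.38-fold. Its 2 other probe sets read 595, 1543, 2941 and 949.5, and 178, 415, 1593 and 413, with the same culture on top and at the bottom in each. Nrp2, the receptor of Sema3f and Sema3c, read 121, 320.2, 843 and 461, and was at least 2.62-fold lower in the subventricular zone than in the ventral mesencephalon. It was at least 6.90-fold higher in the olfactory bulb than in the subventricular zone. In the subventricular zone Sema3f was therefore at its highest where its receptor Nrp2 was at its lowest, with Nrp2 there below the floor. This pair was not set in advance, and the other probe set of Sema3f was below the floor throughout. The summed fibroblast and meningeal markers ran in the order of Nrp1 over the cultures, lowest in the subventricular zone and highest in the olfactory bulb, and their part in it was not tested.

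Among the plexins Plxna2 stood out. Plxna2, a signalling partner of neuropilins and a receptor of class 6 semaphorins, read 85.1 in the subventricular, 205 in the mesencephalic, 777 in the olfactory and 96.7 in the hippocampal culture, 3.80-fold higher in the olfactory bulb than in the next culture. Nrp1, Nrp2, Plxna2 and the ligand Sema3a thus had their highest signal in the same culture, and were named together after their values were seen. The olfactory bulb was highest for 15 of the 36 members and for 28.7% of all genes. Sema3b, Sema3c, Sema3e and Sema3f, of the same class as Sema3a, were highest in other cultures. Plxnc1, the receptor of Sema7a, read 98.0, 50.5, 305 and 322, above the floor in the olfactory and hippocampal cultures only. Its second probe set at 32.7, 15.8, 150.2 and 159 had the same pattern, and its remaining ones were below the floor throughout. Plxnb2 (1768, 2016, 2920.0 and 2135) and Plxnd1 (860.1, 492.5, 522.5 and 476.5) were above the floor in every culture and varied less, 1.65-fold and 1.81-fold from highest to lowest. Plxna3 passed the floor at 125 in the hippocampus, and Plxna1 and Plxnb3 did not pass it.

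**Figure D3:**
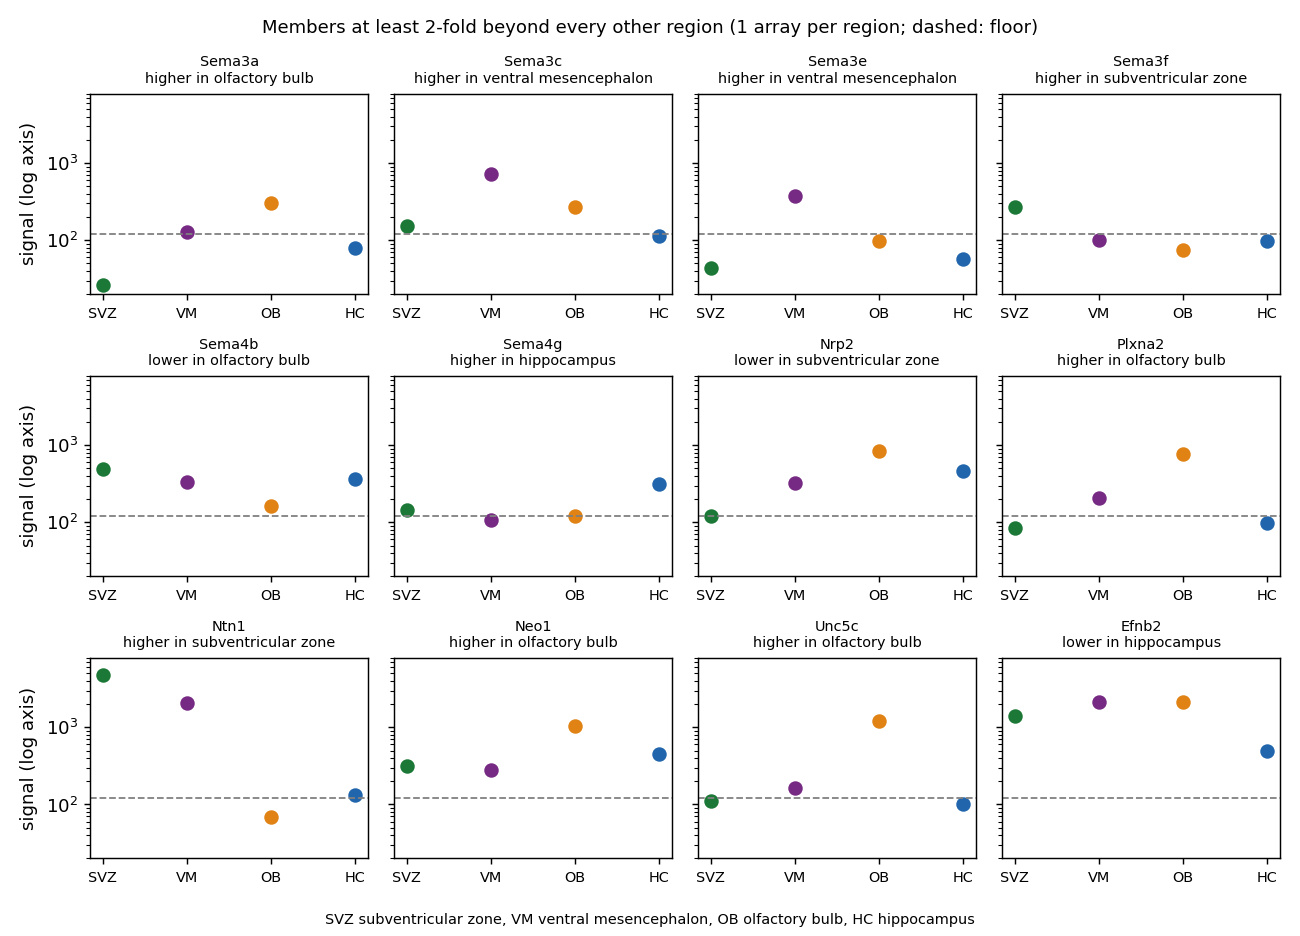
Signals (log axis) of the 12 members called in a region, 1 point per array, for the subventricular (SVZ), mesencephalic (VM), olfactory (OB) and hippocampal (HC) cultures; the dashed line is the floor of 122.1. Ntn1 falls into 2 high and 2 low cultures, Unc5c and Plxna2 are high in the olfactory bulb alone, and Sema3f, Sema3a, Sema4g and Sema3e lie close to the floor, with top signals of 269 to 375.

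Of the 12 class 4 to 7 semaphorins 4 were above the floor. Sema4b read 489 in the subventricular, 329.9 in the mesencephalic, 162 in the olfactory and 361 in the hippocampal culture, 2.04-fold lower in the olfactory bulb than in the ventral mesencephalon. Sema4g read 147, 109, 123 and 319 and was 2.17-fold higher in the hippocampus than in the subventricular zone, but with the 4 arrays quantile normalised its log2 gap was 0.98 and the call ended. Sema4d, the ligand of plexins B that lymphoid and myeloid cells also make, read 101, 63.6, 248 and 389. It passed the floor in the olfactory and hippocampal cultures only, as Plxnc1 was, and its other 2 probe sets were below the floor throughout. These are the 2 cultures in which 18 and 19 of the 20 microglial markers were above the floor, with Csf1r at 4073 and 5099 against 55.6 and 90.9; the part of such cells in the Sema4d and Plxnc1 signals was not tested. Sema7a, a lipid-anchored semaphorin, read 180.2, 222, 23.2 and 58.7 and was above the floor in the other 2 cultures. By the probe sets used, Sema7a and its receptor Plxnc1 were thus above the floor in different cultures, a pair not set in advance. The second probe set of Sema7a read at most 2.7. The 8 others (Sema4a, Sema4f, Sema5a, Sema5b, Sema6a, Sema6b, Sema6c and Sema6d) were below the floor on all arrays, the highest being Sema5b at 120.2 in the subventricular zone.

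Efnb1 and Efnb2 were lowest in the hippocampal culture. Efnb2, which marks arteries and signals in both directions, read 1404 in the subventricular, 2159 in the mesencephalic, 2104 in the olfactory and 492 in the hippocampal culture, 2.85-fold lower in the hippocampus than in the subventricular zone. A second probe set read 551, 846, 729 and 179 and gave the same order of the cultures. Of the other 2, 1 was just above the floor in the ventral mesencephalon at 134 and 1 nowhere, so the mean over all 4 gave a log2 gap of 0.78 in place of 1.51. Efnb1 read 303, 275, 482 and 231, 2.08-fold higher in the olfactory bulb than in the hippocampus and 1.59-fold higher than in the subventricular zone, and its other 2 probe sets had the same culture on top and at the bottom. Efnb3 passed the floor at 148 in the olfactory bulb. The ephrin-A genes were low: Efna1 (65.4, 86.8, 154 and 139), Efna3 (115, 205, 175 and 88.8) and Efna4 (106, 153, 139 and 96.0) had ranges of at least 1.26-fold, 1.67-fold and 1.25-fold, and Efna2 and Efna5 did not pass the floor.

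Of the 11 Eph receptors 7 were above the floor, and none was called in a region, where 10.1% of all genes were, so that 0 of 7 is near that share. Epha4, which binds ephrins of both types, read 361 in the subventricular, 241 in the mesencephalic, 209 in the olfactory and 117 in the hippocampal culture, a range of at least 2.96-fold, and its second probe set, at 167, 134, 71.6 and 54.4, was above the floor in the first 2 of these. Ephb4, the receptor of Efnb2, read 207, 255, 364 and 86.0, at least 2.98-fold higher in the olfactory bulb than in the hippocampus. Epha2 read 212, 308, 43.5 and 42.0, above the floor in the subventricular and mesencephalic cultures only. Efnb2 and Ephb4 were thus both lowest in the hippocampus, a pair not set in advance either. Epha5 (134) and Epha7 (187) passed the floor in the olfactory bulb, as did Ephb6 (139), and Ephb3 (149) in the hippocampus, each in 1 culture with a range under 2-fold. Epha1, Epha3, Epha6 and Epha8 did not pass it.

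Slit2, a repellent of the Slit family, read 917 in the subventricular, 1615 in the mesencephalic, 1446 in the olfactory and 524 in the hippocampal culture. It was 3.08-fold higher in the ventral mesencephalon than in the hippocampus, and 1.75-fold lower in the hippocampus than in the next culture. By this probe set the order of the 4 cultures was that of Efnb2. The other probe set of Slit2 read 52.6, 72.9, 89.6 and 39.6, below the floor throughout. Slit3 passed the floor in the ventral mesencephalon at 221, against 80.3, 87.7 and 1.7 elsewhere. Robo1, a Slit receptor, read 94.7, 166, 193 and 53.6 and so was above the floor in the ventral mesencephalon and olfactory bulb. Slit1, Robo3 and Robo4, the last known from vessels, were below the floor in every culture.

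Set against each other in pairs, the cultures gave their most one-sided count between the olfactory bulb and the hippocampus. There 10 of the 36 members were at least 2-fold higher in the olfactory bulb (5.23% of all genes) and 2, Sema4b and Sema4g, in the hippocampus (8.69%). The 10 were Efnb1, Efnb2, Ephb4, Neo1, Nrp1, Plxna2, Sema3a, Sema3c, Slit2 and Unc5c. Between the olfactory bulb and the subventricular zone 8 were higher in the former (8.39% of all) and 5 in the latter (9.0%), the 5 being Ntn1, Sema3b, Sema3f, Sema4b and Unc5b. The olfactory bulb was above the ventral mesencephalon for 7 members (5.53%), and the reverse held for 6 (6.46%). The ventral mesencephalon was above the hippocampus for 8 members (6.77%), among them Efnb2, Slit2, Ephb4, Epha2 and Unc5b, and the hippocampus was above it for 3, Plxnc1, Sema4d and Sema4g (9.43%). The subventricular zone was above the hippocampus for 5 members (4.95%), with Epha4 among them, and below it for 4 (6.54%). The fewest members differed between the subventricular zone and the ventral mesencephalon, with Ntn1, Sema3b and Sema3f higher in the former (5.45%) and Nrp1, Nrp2, Sema3c and Sema3e in the latter (4.97%). Pairs that share a culture share its array, so these counts are not independent of each other.

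Separate probe sets of 1 gene gave a check on the measurement, though not on the cultures. Over the 1977 genes with 2 or more probe sets above the floor on every array, the log2 difference between 2 arrays differed between probe sets with a median-based SD of 0.32. Of the members, 25 had several probe sets, and 8 had a further one above the floor on at least 1 array, 11 probe sets in all. In 10 of the 11 the highest culture was that of the probe set used. Probe sets below the floor throughout were not counted, and some of the 11 passed it in 1 culture alone. Efnb1, Efnb2 and Nrp1 gave more than 1 each, so the 11 are not independent of each other. The exception was Sema3b, whose second probe set passed the floor at 124.5 in the hippocampus and read 116 in the subventricular zone.

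**Figure D4:**
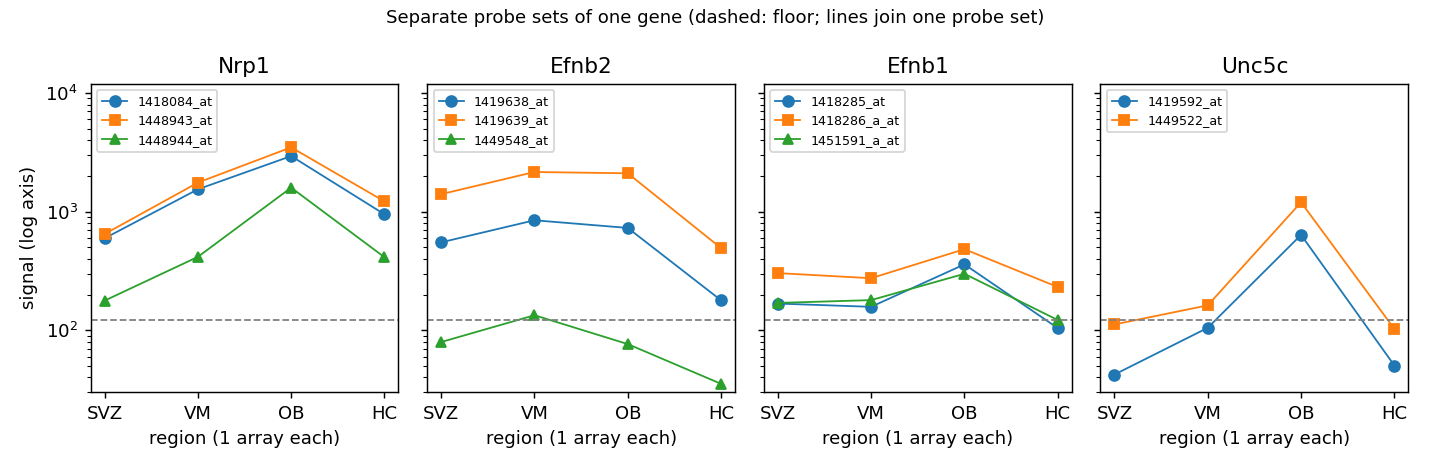
Signals (log axis) of the separate probe sets of Nrp1, Efnb2, Efnb1 and Unc5c that passed the floor, in the 4 cultures (SVZ subventricular, VM mesencephalic, OB olfactory, HC hippocampal); each line is 1 probe set, and the dashed line is the floor of 122.1. All probe sets of Nrp1, Efnb1 and Unc5c peak in the olfactory bulb, and the 2 of Efnb2 above the floor in every culture are lowest in the hippocampus.

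Genes that bind these receptors or act downstream of them were called at a rate near that of all genes. Of 107 listed partners 90 were on the arrays, 72 were above the floor and 9 of these, 12.5%, were called in a region against 10.1% of all genes; the median range was 1.77-fold against 1.61-fold. In the subventricular zone the adhesion molecule Nrcam, a coreceptor for class 3 semaphorins with Nrp2, was 4.38-fold higher (2428 against 237, 307 and 554), and 3 genes were lower: the adaptor Grb10 (462 against 3871, 6263 and 1115), the morphogen Bmp4 (195 against 1752, 1886 and 417) and the heparan sulfate proteoglycan Gpc1, which binds Slits (169 against 768, 537 and 487). The summed fibroblast and meningeal markers were lowest in that culture too, and their part was not tested. In the olfactory bulb L1cam, the coreceptor of Nrp1 for Sema3a, was at least 3.81-fold higher (465, the remaining cultures being below the floor), Pdzrn3 was 2.21-fold higher (1170.2) and Dpysl3, of the family that relays Sema3a signals, 2.10-fold higher (3722). Vegfc, a ligand of Nrp2, was 2.06-fold higher in the ventral mesencephalon (335), and Ngef, the exchange factor of EphA receptors, at least 2.04-fold higher in the hippocampus (249).

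By list, 1 of 16 semaphorin effectors above the floor was called, 3 of 9 semaphorin coreceptors and other neuropilin ligands, 3 of 18 Eph effectors, 1 of 12 netrin receptor effectors and 1 of 17 Slit and Robo partners. Partners that were not called but had a wide range were Vegfa (468, 711, 187 and 312), the ligand shared with Nrp1, and Lrig1 (1395, 887, 260.4 and 487), Sdc1 (637, 1699, 882 and 340.4), Ptpn13 (354, 239, 140.5 and 493), Enah (2228, 1264, 816 and 2002) and Mical2 (52.2, 220.4, 297 and 54.7). Sdc1 was highest in the ventral mesencephalon, Ptpn13 in the hippocampus and Mical2 in the olfactory bulb. Cd72, the lymphoid and myeloid receptor of Sema4d, was above the floor in the same 2 cultures as Sema4d, at 449 (olfactory) and 447.5 (hippocampal) against 31.0 and 12.2; it was picked out after its values were seen.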

How the data were processed

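RNA of 4 astrocyte cultures, 1 per brain region, was measured on Affymetrix arrays. Per the labels' protocols, shaking at 200 rpm enriched astroglia among the adherent cells before they were replated as monolayers, and 2 ug of total RNA went into each cRNA. The authors deposited a signal intensity per probe set on a linear scale, made with GCOS 1.4 per the submitters' processing notes; the algorithm is not given in the sources used here. No detection calls were used, so a floor took their place. Of 22690 probe sets 20380 had 1 gene symbol, 691 several, 1555 none listed, and 64 were controls. Where a gene had several probe sets, that of highest mean floored log2 signal was used. All 58 members matched RefSeq by gene identifier. The number of arrays limits the precision, and no test or p-value was computed. Values are given for called members and the 2 of widest range in each role group, and others complete the groups. The rule for the members uses symbols only, but the choice of these families, like that of the partner and marker lists, was made with earlier results of these data known. The alternatives were 2 other floors, other rules for probe sets, quantile normalisation, other fold limits and leaving out each array. Python 3.11.15, numpy 2.4.6 and pandas 2.3.3 were used.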

Additional observations from a re-analysis of the deposited data

How the results depend on the processing

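No gap of a called member to its nearest region changed sign in any of its 96 recomputed values, while 14 of them were below 2-fold. For most of these values a change of sign was not possible. Leaving out another region can only keep or widen a gap, and another floor on the same probe set can at most close it. The missing changes of sign are therefore no measure of how stable the calls are. Counts depended on the floor and on the fold limit by construction. For all members called, members at least 2-fold in range, member differences summed over pairs and partners called, the values of 12, 22, 65 and 9 became 22, 41, 133 and 18 when the floor was the 30th percentile of all signals and 6, 9, 27 and 4 at the 70th. A 3-fold limit gave 3, 12, 26 and 2, and a 1.5-fold limit gave 21 members called, 104 pair differences and 21 partners. The mean over probe sets, which shrinks a gap wherever a further probe set is below the floor, gave 7 members called, 14 in range and 40 pair differences. The share of all genes called changed with the setting too. At the 30th percentile 22 of 51 members above the floor were called (14.7% of all genes), and at the 70th percentile 6 of 18 (7.48%). Of 36 members, 3 were called at 3-fold (3.49% of all genes), 21 at 1.5-fold (26.0%) and 7 with the mean (7.79%). All 12 calls were among the 22 at the lower floor, and 3 remained at 3-fold (Plxna2, Sema3e, Unc5c). By region, the 30th percentile gave 4 higher and 2 lower in the ventral mesencephalon, 2 lower in the subventricular zone, 2 lower in the olfactory bulb, and 2 higher and 3 lower in the hippocampus. The 70th gave 1 higher in the subventricular zone, 1 higher in the ventral mesencephalon, and 0 lower in the subventricular zone, 0 lower in the olfactory bulb and 0 higher in the hippocampus. The 3-fold limit gave 0 higher or lower in the subventricular zone and hippocampus, 1 higher in the ventral mesencephalon, and 2 higher and 0 lower in the olfactory bulb; the 1.5-fold limit 2 lower in the subventricular zone, 8 higher in the olfactory bulb, and 2 higher and 4 lower in the hippocampus. The mean over probe sets gave 0 higher in the subventricular zone, 1 higher in the ventral mesencephalon, 0 lower in the olfactory bulb and 0 lower in the hippocampus. Without probe sets that may match several transcripts 1 was higher in the subventricular zone, since Sema3f has 1 other probe set, below the floor; quantile normalisation left 0 higher in the hippocampus. Leaving out 1 array gave 10 to 16 members called and 12 to 17 partners (15 without the subventricular zone, 17 without the ventral mesencephalon). The share of all genes called was then 14.7% to 16.4%. Higher and lower counts then ran from 2 to 3 and 1 to 3 in the subventricular zone, 2 to 5 and 0 to 2 in the ventral mesencephalon, 4 to 7 and 1 to 3 in the olfactory bulb, and 1 to 3 and 1 to 4 in the hippocampus. The highest were 5 higher and 2 lower in the ventral mesencephalon and 4 lower in the hippocampus when the subventricular zone array was left out, 3 lower in the subventricular zone without the ventral mesencephalon array, 7 higher and 3 lower in the olfactory bulb without the hippocampus array, and 3 higher in the hippocampus without the olfactory bulb array. Signals near the floor limit what can be said of 22 members below it. No paired analysis was possible because each region has 1 sample.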

Other observations

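Some members lie beside each other on a chromosome. Sema3b and Sema3f are separated by 3 protein-coding genes on chromosome 9 and both had their highest signal in the subventricular zone, by the probe sets used for them. Of the 3 genes between them, the G protein subunit gene Gnai2 read 6408 in the subventricular, 4787 in the mesencephalic, 4482 in the olfactory and 4734 in the hippocampal culture. The amino acid transporter gene Slc38a3 read 564, 142, 428 and 1900.3, highest in the hippocampus, and Gnat1 was no higher than 10.6. Sema3a and Sema3e, with 3 genes between them on chromosome 5, were highest in different cultures, the olfactory bulb and the ventral mesencephalon. Efna1, Efna3 and Efna4 follow each other on chromosome 3 with no protein-coding gene between; Efna3 and Efna4 were highest in the ventral mesencephalon and Efna1 in the olfactory bulb, all within 2-fold of the floor.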
